A study of Pomatostomus ruficeps with 28 samples.

Results

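Of the 1564780 CpG sites listed for nestling chestnut-crowned babblers, 11378 (0.727%) were half-methylated with a limited spread between birds. They were chosen on 2 measured values, a mean methylation from 40 to 60% over the nestlings and a variance between nestlings of at most 400 squared percentage points, which is an SD of 20 points. A further 1698 sites (0.109%) had a mean in the same range and a variance above the limit, and they are called the high-variance sites here. Because the mean and the variance chose the sites, both are given as descriptions and were not tested.

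The data came from the blood of 28 nestlings aged 14 to 20 days, 19 raised by groups, in which helpers fed the brood beside the breeding pair, and 9 raised by pairs without helpers. Nestlings had been returned to their own nest or moved to an unrelated one after hatching, and that status was not used here. DNA was converted enzymatically, so that unmethylated cytosines were read as thymine, and the percent methylation of a site in a nestling is the share of its reads that stayed cytosine. Each site had a value in 18 or more nestlings (median 21), and the total number of reads over the listed sites was 5266843 to 19539803 per nestling raised by groups (median 10902191) and 8021028 to 17617440 per nestling raised by pairs (median 11838855).

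In vertebrates a methyl group on the cytosine of a CpG is copied to the new strand after replication, since the CpG reads the same on both strands and the maintenance enzyme DNMT1 acts on sites methylated on one strand only. Most CpGs of a vertebrate genome are methylated and CpG-rich promoters are usually not, so intermediate levels in a tissue are found where cells, the alleles of a locus, or similar sequences mapped to one place differ. Bird blood consists largely of nucleated erythrocytes, so most of its DNA comes from that cell type.

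The methylation of the half-methylated sites had a median of 55.2% (5th to 95th percentile 42.6 to 59.7%), against 86.9% over all sites. They lay on the lower slope of a continuous distribution and did not form a peak of their own. Numbers of sites, the high-variance ones included, increased through the range, with 1315 sites at a mean of 40 to 45%, 1880 at 45 to 50%, 3202 at 50 to 55% and 6679 at 55 to 60%, and 15818 sites followed at 60 to 65%. Among the 3880 sites with a median of 30 or more reads per nestling, which are the most deeply read ones, the numbers were 230 at 40 to 45%, 321 at 55 to 60% and 396 at 60 to 65%. The term half-methylated therefore names a range of values here and not a separate class of sites.

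**Figure D1:**
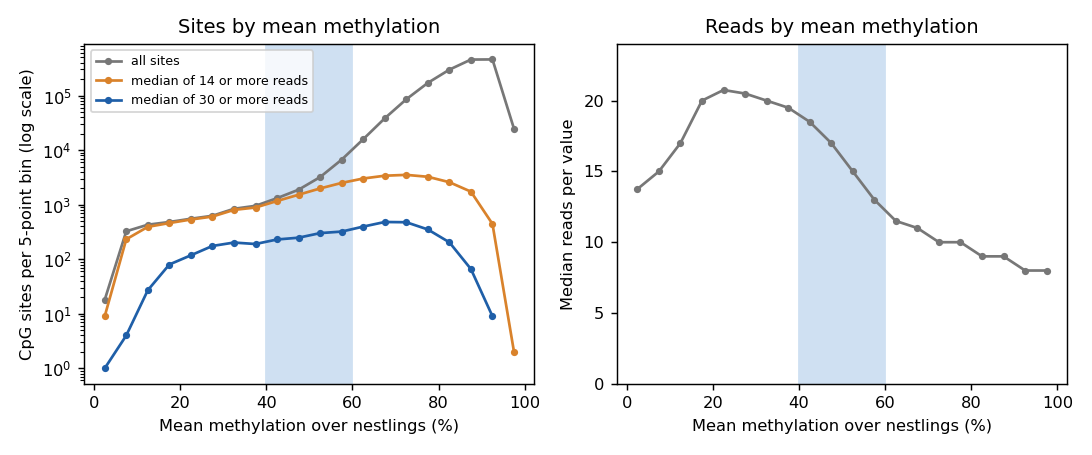
Left, number of CpG sites (log scale) by mean methylation in 5-point bins, for all sites (grey), sites with a median of 14 or more reads (orange) and of 30 or more reads (blue). Right, median reads per value in each bin. The shaded range is 40 to 60%, in which the number of sites increases with the mean and the median reads per value fall to 13 in the bin from 55 to 60%, against 18.5 in the bin from 40 to 45%.

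The members at the edges of the range were close to sites just outside it. The 2 members nearest to the lower limit, at position 339 of scaffold VYZT01117816.1 and position 68652 of VYZT01008445.1, had means of 40.0006% and 40.004%, and the nearest sites below it, position 66433 of VYZT01005368.1 and position 1387 of VYZT01000223.1, had 39.997% and 39.99%. At the upper limit, position 10805 of VYZT01054449.1 and position 116100 of VYZT01054823.1 both had 59.9995%, while position 21552 of VYZT01010556.1 and position 60458 of VYZT01022209.1 had 60.0006% and 60.001%. At the variance limit, position 187179 of VYZT01023570.1 and position 212 of VYZT01110337.1 had variances of 399.89 and 399.85, against 400.11 and 400.16 at position 39158 of VYZT01018865.1 and position 2213 of VYZT01039766.1. Within 2.5 points of the upper limit there were 3525 members and 5590 sites outside. Within 2.5 points of the lower limit there were 542 members and 442 sites outside, and within 50 of the variance limit 453 members and 294 sites outside.

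The half-methylated sites were more deeply read than most of the table. Their median number of reads per nestling was 15 (5th to 95th percentile 11 to 37, highest 66), against 12 at the high-variance sites and 9 over all sites. This depth was not particular to them, since sites just below the range had a median of 19.5 reads at a mean of 35 to 40% and 20 at 30 to 35%. Among deeply read sites the share of members was higher. Of the 29012 sites with a median of 14 or more reads 6824 were members (23.5%). At 20 or more reads 2886 of 10971 sites were members (26.3%), and at 30 or more 1087 of 3880 (28.02%). Under the listing limit described in the next paragraph, values on 9 or fewer reads could not be low. Sites of such depth, which is the median over all sites, could thus seldom enter the range. The comparison of depth with all sites is not independent of that limit, and with the limit allowed for 28036 sites met the rule. The part of depth in the methylation of these sites was not tested, and the mapping of similar sequences to deeply read sites was not examined.

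Reads were recovered from the deposited coverage in 27 of the 28 nestlings by a reading of that column chosen after seeing the data. The reading did not hold in the remaining nestling, whose read counts were deposited and whose coverage was their plain sum. It could therefore not be checked against counts. By the reading used for the 27, a value is listed only where a nestling had at least 5 methylated or at least 10 unmethylated reads. The paper states a minimum coverage of 10, which the recovered reads do not meet in many values, and the results on depth below rest on this reading. A value resting on 9 or fewer reads could therefore not be low, and the lowest such value at the half-methylated sites was 55.6%. Values resting on 14 or more reads are free of this limit, because 1 of the 2 conditions is then always met. The averages by reads below come from the same reading and hold different sites in each class, so they are descriptions and do not test the limit. Single values of the half-methylated sites averaged 69.2% at 5 to 9 reads, 55.2% at 10 to 13 reads, 50.1% at 14 to 19 reads, 50.4% at 20 to 29 reads and 50.9% at 30 or more reads. Of the members' values, 9.75% rested on 5 to 9 reads and 14.3% on 30 or more, whereas over all sites 55.1% and 0.455% did.

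**Figure D2:**
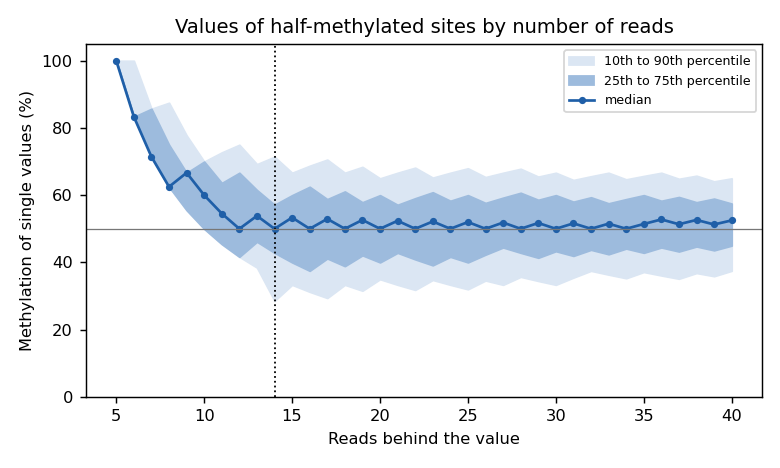
Percent methylation of single values of the half-methylated sites (vertical axis) by the number of reads behind the value (horizontal axis). The line is the median and the bands are the 25th to 75th and the 10th to 90th percentile; the dotted line marks 14 reads, from which no value is removed by the listing limit. The mean is 69.2% at 5 to 9 reads and stays between 50.1 and 50.9% from 14 reads on.

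When the listing limit was allowed for by maximum likelihood on the recovered reads, the half-methylated sites had a median of 50.8% (5th to 95th percentile 40.6 to 57.9%), and 95.8% of them stayed between 40 and 60%. The same calculation put all sites at a median of 84.6%. On values of 14 or more reads alone, 7255 members had 10 or more such nestlings, with a median of 50.9%, and 6833 of these (94.2%) were between 40 and 60%. Both medians were close to 50% and below the 55.2% of the plain means. The second covered 7255 of the 11378 members, and the part of the shallow values in the gap was not tested. Both calculations reuse the reads on which the members were chosen for a mean from 40 to 60%, so the levels are descriptions. Allowing for the limit also brought other sites into the range: 28036 sites then met both limits, and the members were 38.9% of them.

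The position 1 bp away gave a measurement from the opposite strand that the choice of a site did not use. Cytosines of directly adjoining CpGs can also lie 1 bp apart, and no sequence was examined. That both positions of a pair belong to the same CpG was therefore assumed. The table holds 310421 pairs of positions 1 bp apart, which cannot be cytosines of CpGs on the same strand and so, if all are CpG cytosines, are read on opposite strands by different reads. In 4042 members the position 1 bp away stood with the member as a pair on its own. That opposite position was itself half-methylated in 2466 (61.0%), against 0.705% over all sites in such pairs. Its mean had a median of 55.01% (5th to 95th percentile 37.7 to 73.7%), whereas the median over all paired sites was 87.8%. Depth was not matched in either comparison. Opposite positions within 25 points of their members had a median of 18 reads. Among all listed sites with a median of 14 or more reads, paired or not, 23.5% were members. The part of depth in the likeness of the strands was not tested. For 3402 of these members, 10 or more nestlings had 14 or more reads on both positions. Their opposite positions had a median of 52.2% and lay between 40 and 60% in 69.6%. Of the opposite positions of all 4042 members, 23 (0.569%) were under 20% or over 90%. Only 4186 members (36.8%) had a listed position 1 bp away, and the authors had removed sites of low variation. The share therefore does not cover opposite strands that were not listed. Counted by member, the listed opposite positions were thus mostly intermediate as well.

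Where the strands differed, depth differed too. The opposite position was over 25 points away in 140 of the 4042 pairs (3.46%), higher in 117 and lower in 23, a limit chosen after the values had been seen. The 117 higher opposite positions had a median of 11 reads, and their members 18.5. The 23 lower ones had a median of 23 reads, and their members 17. For the other members the medians were 18 reads at the opposite position and 18.5 at the member. The part of the listing limit in these differences was not tested pair by pair.

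The half-methylated sites lay close together on the scaffolds. Another member was within 500 bp of 63.6% of the members, against 22.3% of the high-variance sites and 5.02% of all sites. With positions 1 bp away left out, so that the opposite strand did not count, the shares were 61.2%, 21.8% and 4.99%. The next listed site on the scaffold was a member for 3019 of the 10963 members that had one (27.5%), against 0.714% over all sites.

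The share near another member moved with depth over all sites as well. Among sites with a median of under 14 reads, 29.8% of the 4554 members had another member 2 to 500 bp away, against 3.74% of all sites of that depth. At 14 to under 20 reads the shares were 78.3% of members and 66.8% of sites, at 20 to under 30 reads 87.6% and 77.6%, and at 30 or more reads 87.0% and 76.4%. Deeply read sites, members included, were therefore mostly near half-methylated ones. The excess of the members over all sites of the same depth class was 9.97 to 11.4 points at 14 or more reads and 26.03 points below. High-variance sites had a member that near in 15.1% of 1348 sites under 14 reads and 46.7% of 306 at 14 to under 20. Their shares were 41.9% of 31 sites at 20 to under 30 reads and 76.9% of 13 at 30 or more. Depth was not matched within the class under 14 reads. The 5th percentile of the median reads was 11 over the members, and the 95th percentile was 11.5 over all sites. The part of depth in the clustering was not tested further.

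Next listed sites were less methylated beside members than elsewhere, and the difference was smaller where they lay further away. Of the sites next to a member, 60.5% were members at 1 bp, 28.1% at 2 to 10 bp, 26.5% at 11 to 30 bp, 19.97% at 31 to 100 bp, 10.4% at over 100 to 300 bp, 3.52% at over 300 to 1000 bp and 1.32% at over 1000 to 5000 bp. Over all sites these shares were 0.461 to 1.10%. Neighbours that were not members had a median methylation of 63.5% at 1 bp, 69.3% at 2 to 10 bp, 73.1% at 31 to 100 bp, 77.6% at over 100 to 300 bp and 83.7% at over 1000 to 5000 bp. Between sites that were not members, neighbours had medians of 85.4 to 88.3% at every distance. The median of the next sites that were not members thus came within 2 points of that elsewhere only where they lay over 1000 bp away. Only the adjacent listed sites were used, so each distance class held different members. Depth and the density of listed sites were not matched between the classes.

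**Figure D3:**
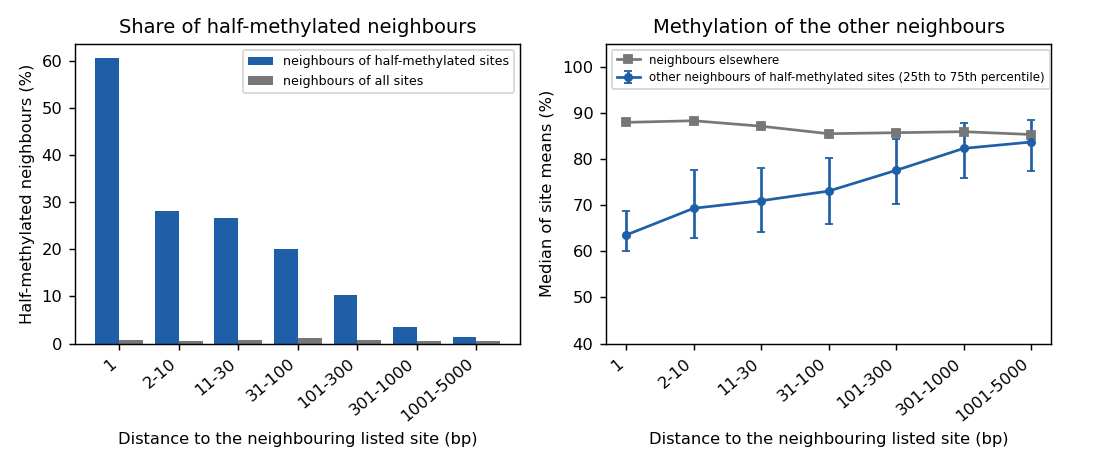
Neighbouring listed sites by distance (horizontal axis, bp). Left, percent of neighbours that are half-methylated sites, for neighbours of half-methylated sites (blue) and of all sites (grey); right, median mean methylation of the neighbours that are not half-methylated, with the 25th to 75th percentile (blue), and of neighbours between other sites (grey). The share falls to 1.32% at over 1000 to 5000 bp, against 60.5% at 1 bp, and the median of the other neighbours is 83.7% against 63.5%.

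Linking members at most 500 bp apart gave 6074 clusters. Of these, 4136 held a single member, which was 36.4% of the members, 1509 held 2 to 4, 349 held 5 to 9 and 80 held 10 or more, 14 of them 20 or more. The 429 clusters of 5 or more held 3405 members (29.9%) and had a median span of 215 bp. Inside them 44.0% of the listed sites were members, and the 4330 others had a median of 68.4%, with 19.6% of them under 40% and 79.5% over 60%. Members in clusters of 5 or more had a median of 19 reads, and members standing alone 12. Members occurred on 3844 of the 22694 scaffolds, and 2073 of them (18.2%) were on scaffolds with under 20 listed sites, which held 5.21% of all sites. On those scaffolds the members had a median of 17 reads and all sites 9, and members on other scaffolds had 14.

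The cluster with most members was on scaffold VYZT01124696.1 at positions 366 to 1097, a stretch of 732 bp in the coordinates of the deposited table. It held 56 members of 134 listed sites, with means of 40.2 to 59.8% and a median of 17 reads. The other sites inside it were on both sides of the range, 46 below 40% and 32 above 60%, and the sites of the scaffold outside it had a median of 24.9%. On values of 14 or more reads, the mean over its members was 39.4 to 63.3% in nestlings raised by groups (median 49.1%) and 41.1 to 53.5% in nestlings raised by pairs (median 46.9%). The groups overlapped over the whole range of the nestlings raised by pairs.

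The next clusters lay in more methylated surroundings. Positions 2801 to 3785 of VYZT01018076.1 (985 bp) held 41 members of 125 listed sites, and the sites outside had a median of 79.8%. Its level was 37.4 to 68.1% in nestlings raised by groups (median 49.1%) and 42.9 to 56.2% in nestlings raised by pairs (median 46.5%). Positions 270 to 1570 of VYZT01066613.1 (1301 bp) held 32 members of 141 sites, with a median of 87.9% outside. Its level was 38.1 to 64.6% in nestlings raised by groups (median 48.3%) and 41.1 to 54.6% in nestlings raised by pairs (median 47.9%). Positions 1564 to 2119 of VYZT01003550.1 (556 bp) held 31 members of 54 sites, with a median of 85.4% outside. Its level was 40.7 to 57.0% in nestlings raised by groups (median 50.5%) and 38.8 to 56.7% in nestlings raised by pairs (median 46.9%). In each of these clusters the nestlings raised by groups and those raised by pairs overlapped, and the medians differed by less than the spread between nestlings of either class.

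The third largest cluster, positions 216 to 476 of VYZT01113364.1 (261 bp), differed from the others in depth and between strands. Its 40 members of 73 listed sites had a median of 47 reads (17 and 18 in the other 4 clusters), and the sites outside had a median of 90.7%. Of its 43 pairs of positions 1 bp apart, 12 had a first position over 25 points above the second. The 1 pair with the reverse difference joined the second position of one of these pairs to the first position of the next. In these 12 pairs, which spanned 103 bp, the first positions had means of 79.9 to 93.2% on a median of 8 to 14 reads, and the second positions 38.3 to 53.5% on 35 to 50 reads. Of the second positions 11 were members, and of the first none. The first position was higher on average in all 27 nestlings with values for both. Where both positions had 14 or more reads, in 108 values of 13 nestlings, the first averaged 87.3% and the second 48.1%. These pairs were picked for their difference after the values had been seen, so these averages are descriptions, and the part of the listing limit and of the unequal depth of the strands was not tested.

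**Figure D4:**
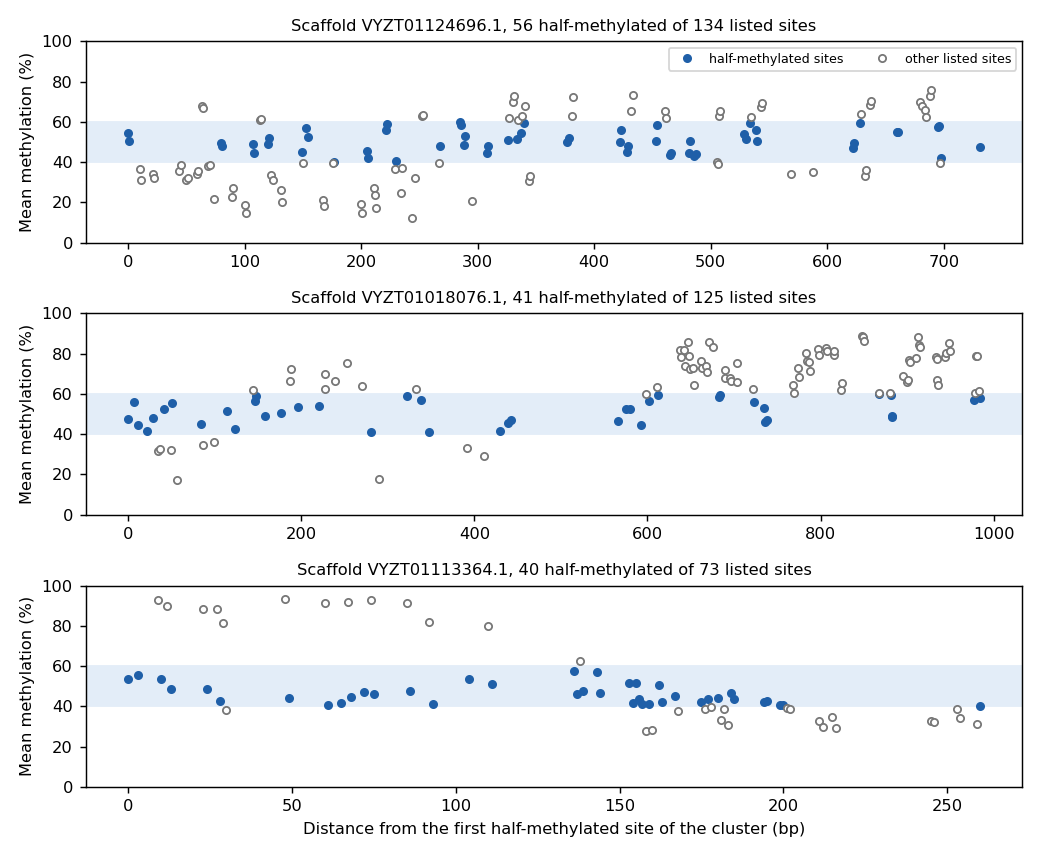
Mean methylation over nestlings (vertical axis, %) of the listed sites in the 3 clusters with most half-methylated sites, by distance from the first one (horizontal axis, bp). Filled points are half-methylated sites, open points other listed sites, and the shaded range is 40 to 60%. In the first cluster the other sites lie below and above the range (46 and 32 sites), and in the third 12 pairs of neighbouring positions hold a first position at 79.9 to 93.2% beside a second at 38.3 to 53.5%.

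Unbroken runs of members were short. There were 127 runs of 5 or more consecutive listed sites that were all half-methylated and 5 runs of 10 or more. The longest run, at positions 3056 to 3181 of VYZT01012178.1 (126 bp), held 13 members. They were 7 CpGs, 6 of them read on both strands, if positions 1 bp apart belong to the same CpG. Their means were 50.004 to 59.8% on a median of 15 reads. On that scaffold 23 of the 26 listed sites were members, and all 26 lay between 44.2 and 66.1%, so no fully methylated site was listed on it.

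Over all half-methylated sites, the median variation between nestlings was close to what read sampling gives, but some deeply read sites had a higher ratio to it. The variance expected from sampling is smaller where reads are many, so the same SD gives a higher ratio there. The variance expected from sampling was taken per site as the binomial variance of its mean averaged over the nestlings' reads. The members had a median variance of 176 (SD 13.3 points), and the ratio of observed to expected variance had a median of 1.10 (5th to 95th percentile 0.560 to 1.95). The ratio was 1.12 with the listing limit allowed for and 1.19 on values of 14 or more reads, where 68.3% of the members were above 1. On those values the variance averaged 151, against 119 expected, which leaves an SD of 5.69 points between nestlings beyond the reads. Over all sites the 3 medians were 0.947, 1.05 and 1.19, and at the high-variance sites 3.25, 2.82 and 3.65. On values of 14 or more reads, 66.5% of all sites with enough such values were above 1, with an SD of 6.15 points beyond the reads. Neither value was thus particular to the members. With the limit allowed for, the third largest cluster (a median of 47 reads) had a median ratio of 2.38. The other 4 of the 5 largest clusters, on 17 or 18 reads, had 1.04 to 1.36. The SD at the median variance was 11.8 points in the third cluster and 11.5 to 14.2 points in the other 4. The higher ratio of the third cluster thus did not go with a larger spread between nestlings. The ratio was not split further by depth. The variance limit itself removed the sites of highest ratio from the members, and the authors had removed sites of low variation, so the ratio describes the sites left by both limits.

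Deviations of a nestling from the mean of a site were partly shared between neighbouring members. On values of 14 or more reads in 10 or more nestlings, the correlation across nestlings had a median of 0.176 over 1005 pairs of members 1 bp apart, which do not share reads. It was 0.401 over 334 pairs at 2 to 10 bp and 0.283 over 480 pairs at 11 to 30 bp. It was 0.0757 over 374 pairs at 31 to 100 bp and 0.00987 over 66 pairs at over 100 to 300 bp. Beyond 1 bp a read can cover both sites if they lie on the same strand. Strands were not separated there, and the sharing of reads was not measured. Each correlation rests on a median of 15 to 18 nestlings, and the values are descriptions. At 1 bp the covariance averaged 28.6 of a variance of 136.

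Among the 691 members with a value in all 28 nestlings, the site of lowest variance was position 103277 of VYZT01032110.1, with a mean of 51.5% and an SD of 7.45 points on a median of 48.5 reads. Its values were 41.2 to 73.3% in nestlings raised by groups (median 51.1%) and 42.47 to 60.7% in nestlings raised by pairs (median 48.5%). The highest value, 73.3%, came from the nestling with the fewest reads at that site, 15. Its variance was 0.938 times that of read sampling, it belonged to a cluster of 10 members, and position 103278 on the opposite strand had a mean of 57.0%.

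Position 174147 of VYZT01014611.1 came next, with a mean of 59.8% and an SD of 7.48 points on a median of 43 reads. Its values were 48.7 to 81.0% in nestlings raised by groups (median 58.3%) and 50.6 to 73.5% in nestlings raised by pairs (median 59.0%). Position 23041 of VYZT01046149.1 had a mean of 59.1% and an SD of 7.58 points, also on 43 reads. Its values were 46 to 70.7% in nestlings raised by groups (median 60.5%) and 47.7 to 77.3% in nestlings raised by pairs (median 55.4%), and the opposite strand had a mean of 55.4%. In all 3 sites the nestlings of both classes overlapped, and the variance was 0.876 to 1.01 times that of read sampling.

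The members with most reads varied more than their reads allow. In points their SDs, 14.6 and 10.2, were on either side of the 13.3 at the median variance of all members. Position 2565 of VYZT01037548.1, with a median of 66 reads, had a mean of 41.9%, an SD of 14.6 points and a variance 5.02 times that of read sampling. Its values were 21.2 to 71.2% in 13 nestlings raised by groups (median 40%) and 26.5 to 52.1% in 6 raised by pairs (median 45.7%), and the opposite strand had a mean of 27.96%. Position 274 of VYZT01106265.1, with a median of 62 reads, had a mean of 40.01%, an SD of 10.2 points and a ratio of 2.24. Its values were 31.2 to 56.2% in 12 nestlings raised by groups (median 43.2%) and 25 to 53.7% in 7 raised by pairs (median 30.3%), and the opposite strand had a mean of 34.0%. Both sites lay near the lower limit of the range and had a less methylated opposite strand.

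Whether care by groups or pairs went with the methylation of these sites was examined by fitting every listed site with a beta regression that held carer class and the nestling's age. The carer term was assessed by a Wald test, which is not an exact test, with Benjamini-Hochberg adjustment over all 1564780 sites. To be called, a site needed an adjusted p no higher than 0.01 and a gap of 25 points or more between the predicted means of the classes. None of the 11378 half-methylated sites was called, beside 0.00153% of all sites (24 sites). The counts differed when natal group was taken into account: with natal group as a random intercept 2 members were called, beside 0.0202% of all sites (315 sites), and with 1 nestling per natal group 2 members, beside 0.0101% (158 sites). At an adjusted p of at most 0.01 alone, 3 members passed (0.0264%; 1 higher and 2 lower in groups), beside 0.0779% of all sites. At an unadjusted p under 0.05, 933 members passed (8.20%), 541 higher and 392 lower in groups, beside 8.48% of all sites. A difference of 25 points between classes adds 141 to the variance of a site measured in all nestlings, so the variance limit acted against such sites and these counts are not independent of how the members were chosen.

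The predicted difference of the members, groups minus pairs, had a median of 0.771 points (5th to 95th percentile -9.76 to 10.8), and 55.03% of the members were higher in groups, against 56.7% of all sites. The member with the smallest p among those higher in groups was position 282972 of VYZT01044832.1. Its values were 50 to 83.3% in nestlings raised by groups (median 70%) and 33.3 to 50% in nestlings raised by pairs (median 45.8%). The classes met at 50% and did not otherwise overlap. The predicted difference was 23.2 points (beta regression, Wald test, adjusted p = 3.45e-05), and the median reads were 10 in groups and 13.5 in pairs, both below the 14 reads from which values are free of the listing limit. It did not pass the adjusted p limit with quasi-binomial regression or limma, which called 0 of all sites. Nor did it pass with 1 nestling per natal group, where the predicted difference was 20.9 points. Limma passed only 30 of the 11378 members at an unadjusted p under 0.05, beside 4.92% of all sites. Failing with limma therefore says little about a member. Position 979 of VYZT01124180.1 was predicted 13.51 points higher in groups and did not pass (beta regression, adjusted p = 0.0131), but it passed the adjusted p limit with natal group as a random intercept and with values of at least 10 reads.

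The members with the smallest p among those lower in groups were position 43731 of VYZT01046453.1 and position 18171 of VYZT01016513.1. Position 43731 of VYZT01046453.1 had 29.4 to 70.6% in nestlings raised by groups (median 48.8%) and 65.2 to 94.1% in nestlings raised by pairs (median 75%), a predicted difference of -23.7 points (beta regression, adjusted p = 0.00267). Position 18171 of VYZT01016513.1 had 28.6 to 75% in nestlings raised by groups (median 53.8%) and 62.5 to 80% in nestlings raised by pairs (median 73.3%), a predicted difference of -19.1 points (beta regression, adjusted p = 0.00639). The classes overlapped at both sites. Neither passed with quasi-binomial regression, with limma, with 1 nestling per natal group or on values of 14 or more reads, and position 18171 of VYZT01016513.1 did not pass with carer class alone either. The limma result says little here too, since few members passed with it at any limit. At position 18172 of VYZT01016513.1, on the opposite strand, the means differed by -9.02 points (unadjusted p = 0.196 by the same regression).

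On values of 14 or more reads, an alternative added after the data had been seen, 6 members were called among 7238 tested, beside 0.0513% of the 40910 sites tested. Each rested on 7 to 10 nestlings raised by groups and 3 or 4 raised by pairs, and with all values their adjusted p from the same regression was 0.388 to 0.991. The clearest separation was at position 24927 of VYZT01062877.1, with 41.7 to 75% in 8 nestlings raised by groups (median 53.3%) and 23.5 to 26.7% in 3 raised by pairs (median 25%). At position 287571 of VYZT01043210.1 the difference predicted with age in the model was 27.3 points, while the plain means were 57.5% in groups and 48.9% in pairs.

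The level of each nestling over these sites is given as a description, because the limits on the mean and the variance were set on the same nestlings and hold their levels near the middle of the range. The mean over the half-methylated sites was 50.8 to 57.7% in nestlings raised by groups (53.8 ± 1.93%, SD, n = 19) and 49.2 to 55.8% in nestlings raised by pairs (53.3 ± 2.21%, SD, n = 9). On values of 14 or more reads it was 49.2 to 52.6% in groups (50.5 ± 0.945%) and 47.9 to 52.3% in pairs (50.3 ± 1.43%). The values of the classes overlapped on both measures, and nothing is read from their closeness. The number of members with a value was 6240 to 10816 per nestling raised by groups and 5550 to 10554 per nestling raised by pairs.

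**Figure D5:**
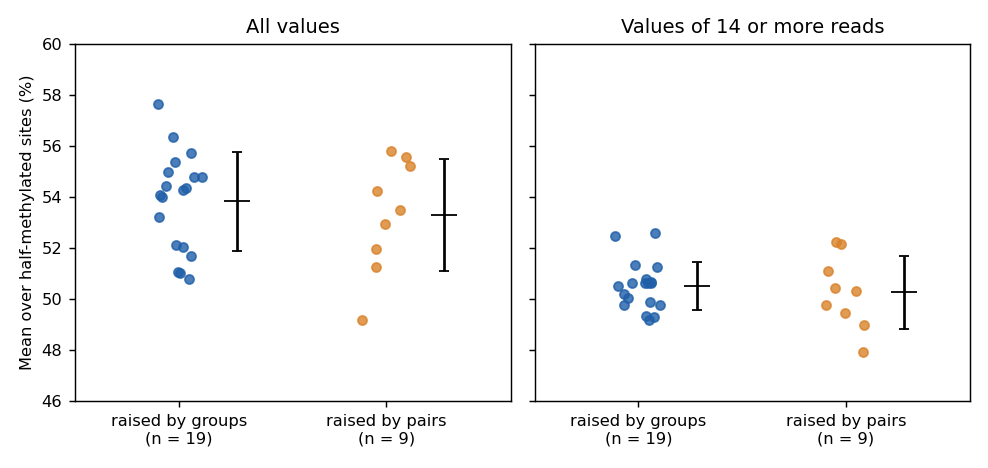
Mean methylation over the half-methylated sites (vertical axis, %) in each nestling raised by groups (blue, n = 19) and by pairs (orange, n = 9), on all values (left) and on values of 14 or more reads (right). Each point is a nestling and the bars are the mean ± SD. The classes overlap in both panels, and with 14 or more reads all nestlings lie between 47.9 and 52.6%.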

How the data were processed

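Blood DNA of 28 nestlings was sequenced after enzymatic conversion. Per the labels and the paper's methods, the authors mapped the reads with Bismark, collapsed strands and removed sites with coverage under 10. They kept sites that were covered in most nestlings of both classes and varied between birds. A deposited percent value is the share of methylated reads at a site in a nestling, with no normalization between birds, and 1 nestling has deposited counts of methylated and unmethylated reads. Despite the stated collapsing, the table lists positions 1 bp apart. In the other 27 nestlings reads were recovered from the deposited coverage signal, read as 2 times the methylated reads (where 10 or more) plus the unmethylated reads (where 10 or more). This reading was chosen after seeing the data and resolved 100% of the values within 1e-06, against 13.8 to 28.2% of values below 100% with coverage shuffled. In the 1 nestling with deposited counts, coverage was the plain sum of both counts in 100% of values. The reading resolved only 7.17% of its values below 100%, so no nestling allowed the reading to be checked against counts. The authors did not state it, and it puts 55.1% of all values on 5 to 9 reads despite the stated minimum coverage. The deposited column of variance, a score per site, was used for the variance limit.

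Beta regressions were fitted in Python 3.11.15 (numba 0.67.0, numpy 2.4.6, scipy 1.17.1), and limma 3.58.1 in R 4.3.3 was an alternative; the fits were tested on simulated data and against glmmTMB 1.1.9. Brood was not used here. Nestlings of 1 brood may not be independent, and the main regression treated all 28 as independent, so its p-values may be too small. Sites named in the text were those of the 5 largest clusters, the longest run, the 3 lowest variances in all 28 nestlings, the 2 nearest to each limit on either side, the 2 with most reads and the 2 smallest p in each direction, with the third cluster's strand pairs and the sites called at 14 reads added after their values were seen. The sites, the rules and the tests were chosen with earlier results of these data known. Read numbers limit precision, since a site of 50% measured on few reads varies widely by counting alone, and genes near the sites were not examined.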

Additional observations from a re-analysis of the deposited data

How the results depend on the processing

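Of the choices that define the half-methylated sites, a mean of 45 to 55% left 4369 sites, values of at least 10 reads gave 20822, and allowing for the listing limit (added after seeing the data) gave 28036, against 11378. The last 2 settings leave out or allow for values of under 10 reads, which cannot be low. Leaving out 1 nestling at a time gave 10998 to 11672 sites and kept 93.6 to 98.4% of the members. The share with another member within 500 bp (63.6%) was 55.9% for 100 bp, 66.2% for 2000 bp, 39.8% without sites of a median coverage over 18, 61.4% without scaffolds of under 20 sites, 61.2% without positions 1 bp away and 30.5% at members with a median of under 14 reads, the last 2 added. The share whose next site was a member (27.5%) was 33.3% within 100 bp, 18.6% for means of 45 to 55%, 20.6% at 10 reads and 19.6% at 2 bp or more (added). The ratio to read sampling stayed at 1.07 to 1.19. Sites called for carer class (24) numbered 76 with values moved inside by 0.001, 158 with 1 nestling per natal group, 315 with natal group as random intercept, 1219 without the 25-point filter, 62 at an adjusted p of 0.05, 375 at 10 reads and 0 with limma or quasi-binomial regression. Half-methylated sites called (0, with 933 at an unadjusted p under 0.05) numbered 2 with 1 nestling per natal group (0.0101% of all sites called), 2 with the random intercept (0.0202%), 3 without the filter (0.0779%), 4 at 10 reads (0.0522% of 718484 sites) and 6 at 14 reads (added; 0.0513% of 40910). Limma and quasi-binomial regression called 0. At an unadjusted p under 0.05 they passed 30 and 561 of the 11378 members, beside 4.92% and 4.76% of all sites. Limma drew the variance of each site towards a value set by all sites. Its share was far lower among the members than over all sites, so a member failing with limma says little. Of 34 refits of the 4 named sites, 12 lost and 2 gained the adjusted p limit and none reversed; the cause was not tested. No paired analysis was possible because the labels give no number that pairs a nestling raised by groups with one raised by pairs; the natal group code groups nestlings without pairing them and entered only in the fits named above.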
